A study of Mus musculus with 5 samples.

Results

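The genes described here carry the family names of the cell division machinery: Mcm, Cdc, cyclins A, B, D and E (Ccn), Cdk, Cdk inhibitors (Cdkn), Cenp, Aurora (Aurk), Bub, E2f and numbered kinesins (Kif). The rule that picks them reads gene names, without Cdc42 and its relatives and without loci whose name joins several genes, which gave 123 genes of the 12375 named loci in the table. RNA levels were measured by poly(A) RNA sequencing in 5 tissues of C57BL/6J mouse embryos, with 1 library per tissue. At embryonic stage E10.5 these were the liver and the ventral and dorsal pancreas, and at E8.5 the medial foregut and the foregut. No mutation, transgene or treatment is given for any of them, and the sources used here do not say how tissue was isolated or whether embryos were pooled. The study set progenitors of the liver beside those of the pancreas and beside the earlier gut tube. Levels are FPKM, which counts sequenced fragments for each kilobase of transcript and each 1000000 mapped fragments. With 1 library per tissue there was no spread between replicates, so every difference below is between libraries and none was tested.

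A dividing cell first loads the Mcm helicase onto DNA, then starts replication under cyclin-dependent kinases (Cdks) and their cyclins, and then builds a spindle of microtubules and kinesin motors that pulls the chromosomes apart at their centromeres. E2F factors switch on the genes for DNA synthesis, the Aurora and Bub kinases watch over chromosome attachment, and Cdk inhibitors such as Cdkn1a (p21) and Cdkn1c (p57) hold the cycle back. In the embryo, the liver and pancreatic buds grow out of the foregut endoderm by fast division. Not all genes of these names divide cells: many kinesins carry cargo in neurons and cilia, several Cdks act in transcription, and some genes are only named after a partner.

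Summed liver markers were highest in the liver library, and summed pancreas markers were highest in the pancreas libraries. The summed level of 7 liver genes, among them Alb and Ttr, was 4735 FPKM in liver, 481 in ventral pancreas, 62.5 in dorsal pancreas, 17.9 in medial foregut and 22.9 in foregut. The summed level of 8 pancreas genes was 2.61 FPKM in liver, 339 in ventral pancreas, 1495 in dorsal pancreas, 7.56 in medial foregut and 19.5 in foregut. Of these sums, Gcg alone gave 208 FPKM in ventral pancreas and 1349 in dorsal pancreas. In ventral pancreas the liver genes summed higher than the pancreas genes. Marker genes of other tissues were also present. The 9 heart muscle genes summed to 491 FPKM in liver, 25.7 in ventral pancreas, 21.9 in dorsal pancreas, 9080 in medial foregut and 5271 in foregut, and none was at 0 in any library. The 11 mesenchymal genes found of 12 listed summed to 282, 109, 179, 1282 and 789 FPKM in the same order of libraries. Acta2 alone gave 133, 2.78, 0.923, 1042 and 635 FPKM of these mesenchymal sums. Col1a1, Col3a1 and Postn were instead higher in every E10.5 library than in both E8.5 libraries. The 5 leukocyte genes found of 11 listed summed to 87.2, 2.75, 5.70, 2.30 and 1.57 FPKM. C1qb, C1qc and Cx3cr1 were at 0 in both E8.5 libraries. The 6 erythroid genes found of 12 listed summed to 26.8, 146, 31.4, 13.1 and 10.6 FPKM. The 9 endothelial genes found of 10 listed summed to 97.2, 30.5, 66.3, 149 and 113 FPKM. The part of these cells in the results below was not tested, and in bulk RNA fewer cells of a type and less RNA per cell cannot be told apart.

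Promoter sequences show what parts of the machinery share apart from their names. The RefSeq promoter table (build GRCm38.p6, 250 bases before to 50 after each gene start) held 106 of the 123 genes. E2F words were searched as TTTCCCGC, TTTGGCGC, TTTCGCGC and TTTGCCGC on both strands. One was present in 14 of the 106 genes (13.2%), in 5 of 10 genes of the replication licensing group, in 4 of 5 of Mcm2 to Mcm7, and in 704 of all 27025 genes of the table (2.60%). The group called licensing here holds the Mcm genes, Cdc45 and Cdc7, and not all of them act in licensing itself. The stretches shown are the 170 bases before the start of 3 Mcm helicase genes, read 5′ to 3′ on the strand of the gene, with the E2F words in capitals. In Mcm5 a pair of words overlaps, as does a pair in Mcm6, which has a further word nearer the start.
Mcm5 (chr8:75109339-75109508, plus strand): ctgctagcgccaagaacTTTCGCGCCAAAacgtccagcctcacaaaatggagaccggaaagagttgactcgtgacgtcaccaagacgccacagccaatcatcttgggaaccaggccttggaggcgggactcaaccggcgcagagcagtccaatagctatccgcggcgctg
Mcm6 (chr1:128359706-128359875, minus strand): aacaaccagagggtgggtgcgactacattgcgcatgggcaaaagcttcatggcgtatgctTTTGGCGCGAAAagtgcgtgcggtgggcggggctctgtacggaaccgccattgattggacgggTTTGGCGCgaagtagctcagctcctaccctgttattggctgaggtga
Mcm7 (chr5:138171884-138172053, minus strand): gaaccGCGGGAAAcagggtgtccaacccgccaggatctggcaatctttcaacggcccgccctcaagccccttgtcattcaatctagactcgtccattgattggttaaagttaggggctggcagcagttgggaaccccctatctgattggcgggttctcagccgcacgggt
The cell cycle homology region (CHR) is a short word known from promoters of genes that are switched on before mitosis. It was searched as TTTGAA on both strands and overlaps none of the E2F words, though both can lie side by side, as in Kif15. It was present in 34 of the 106 genes (32.1%), in 8 of 10 mitotic kinesins (80%), in 3 of 4 Aurora and Bub genes, in 5 of 15 centromere genes, and in 5466 of all 27025 genes of the table (20.2%). The stretches shown run from 60 bases before to 20 after the start, with the CHR word in capitals, and include Kif23, the mitotic kinesin with the widest range of levels here, beside genes whose levels varied less.
Kif23 (chr9:61946780-61946859, minus strand): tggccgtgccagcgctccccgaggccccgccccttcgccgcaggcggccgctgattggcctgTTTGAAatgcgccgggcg
Kif11 (chr19:37376322-37376401, plus strand): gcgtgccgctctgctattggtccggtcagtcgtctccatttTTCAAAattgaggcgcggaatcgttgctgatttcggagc
Kif15 (chr9:122951021-122951100, plus strand): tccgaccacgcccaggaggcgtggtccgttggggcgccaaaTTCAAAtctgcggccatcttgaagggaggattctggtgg
Kif18b (chr11:102925105-102925184, minus strand): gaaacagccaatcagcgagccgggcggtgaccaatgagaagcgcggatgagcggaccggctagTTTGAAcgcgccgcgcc
Kif20b (chr19:34922298-34922377, plus strand): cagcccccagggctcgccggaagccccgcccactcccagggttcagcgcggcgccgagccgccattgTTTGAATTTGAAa
Cenpf (chr1:189688067-189688146, minus strand): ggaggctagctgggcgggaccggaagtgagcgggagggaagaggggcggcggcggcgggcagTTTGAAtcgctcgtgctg
Cdc20 (chr4:118437324-118437403, minus strand): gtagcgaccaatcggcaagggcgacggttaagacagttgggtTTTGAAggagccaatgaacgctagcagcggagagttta
Ccnb2 (chr9:70421535-70421614, minus strand): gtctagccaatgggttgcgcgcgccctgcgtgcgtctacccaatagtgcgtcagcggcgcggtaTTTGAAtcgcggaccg
In Kif23 the word lay at bases 3 to 8, counted from 1 at the start of the gene, and in Kif11 and Kif15 at bases -19 to -14, before the start. A match of letters is a description of the sequence and not a bound site.

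**Figure D1:**
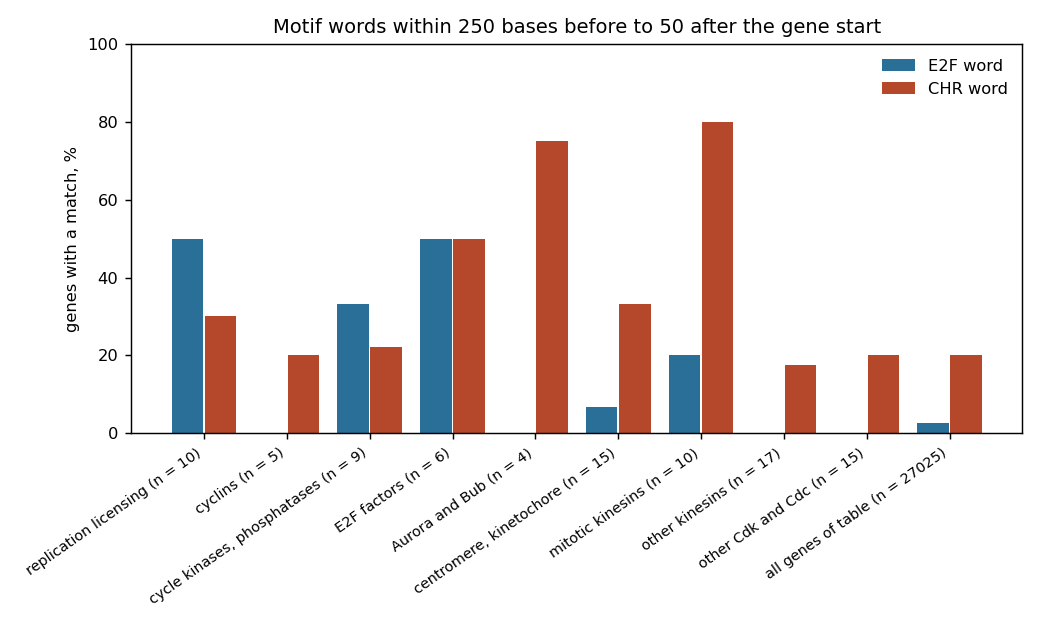
Share of genes with at least 1 E2F word (blue) or CHR word (red) from 250 bases before to 50 after the gene start, by group of genes, with the number of genes on the axis. E2F words reach 50% in the licensing and E2F groups, against 2.60% of all genes, and CHR words reach 80% in the mitotic kinesins, against 20.2% of all genes.

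Most of the cell division genes were expressed in all 5 tissues at similar levels. Of the 123, 112 reached 1 FPKM in every library and 108 reached 5 FPKM in at least 1. Among those 112, the highest library was under 2 times the lowest in 84 (75%), against 6067 of 9443 named loci under the same condition (64.2%). The counting of higher and lower genes asked that log2(FPKM + 1) differ by at least 1, a doubling of FPKM + 1, in the same direction against each library on the other side, and that the higher library reach 5 FPKM. By this rule 17 of the 123 genes (13.8%) were counted in any of 6 comparisons, against 2595 of all named loci (21.0%). The added 1 FPKM makes a difference smaller than the ratio of the levels for genes near 1 FPKM.

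Of the 11 genes of the replication licensing group, 9 were highest in the foregut. Mcm2 to Mcm7, the 6 subunits of the replicative helicase, summed to 512 FPKM in liver, 464 in ventral pancreas, 505 in dorsal pancreas, 543 in medial foregut and 676 in foregut. All 6 were highest in foregut, with the values as deposited and after either of the rescalings tried. Mcm5 had 87.7, 67.3, 83.3, 91.0 and 116 FPKM in liver, ventral pancreas, dorsal pancreas, medial foregut and foregut. Mcm3 had 101, 85.7, 88.7, 111 and 134 FPKM, Mcm4 had 65.2, 56.9, 64.8, 78.9 and 96.0 FPKM, and Mcm7 had 51.2, 42.5, 47.8, 47.5 and 64.5 FPKM in the same order. Thus ventral pancreas was the lowest library for Mcm3, Mcm4, Mcm5 and Mcm7, and also for Mcm2, but not for Mcm6. Mcm2 had 105, 90.8, 117, 108 and 131 FPKM, and Mcm6 had 102, 120, 103, 107 and 134 FPKM in the same order. The Mcm4 and Mcm7 loci overlap Prkdc and Ap4m1, and reads of overlapping genes cannot be separated without strand.

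The remaining genes of the licensing group were lower in level and spread no wider. Mcm10, which helps to start the helicase, had 16.6, 14.1, 18.4, 19.7 and 24.0 FPKM in liver, ventral pancreas, dorsal pancreas, medial foregut and foregut. Cdc45, part of the active helicase, had 30.5, 22.3, 29.4, 34.1 and 35.2 FPKM, and Cdc7, the kinase that fires origins, had 19.3, 22.2, 25.1, 21.8 and 23.7 FPKM in the same order. Mcm8 and Mcm9, a helicase pair of DNA repair, had 8.78, 10.7, 9.01, 11.3 and 12.3 FPKM and 5.07, 7.07, 6.03, 4.93 and 5.13 FPKM. None of the 11 licensing genes was counted in any comparison. All 11 were lower in medial foregut than in foregut, where 50.4% of all named loci were. The median difference of the 11 was -0.27 on the log2(FPKM + 1) scale against -0.00 for all named loci. Each step was within the size that was not counted. The median difference of the 11 licensing genes from the E8.5 libraries was -0.14 in liver, with -0.49 in ventral pancreas and with -0.32 in dorsal pancreas. Each is given relative to the median of all named loci.

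Of the 8 cyclins, Ccnd1 was counted in each E10.5 library against the E8.5 libraries, and Ccne1 in liver against the pancreas libraries. Stage and tissue differ together between the E10.5 and E8.5 libraries and cannot be told apart. Ccnd1 (cyclin D1), which couples growth signals to entry into the cycle, had 110 FPKM in liver, 98.1 in ventral pancreas, 73.6 in dorsal pancreas, 22.0 in medial foregut and 29.6 in foregut. The locus lies at mm9 chr7:152115869-152127711. All 3 E10.5 libraries were above both E8.5 libraries, with mean differences of 2.06 in liver, with 1.90 in ventral pancreas and with 1.49 in dorsal pancreas on the log2(FPKM + 1) scale. Ccnd3 (cyclin D3), a close relative, did not do the same: it had 51.1, 37.3, 59.8, 71.6 and 60.7 FPKM in liver, ventral pancreas, dorsal pancreas, medial foregut and foregut, and was counted in no comparison. Ccnd1 therefore made up 68.2% of the summed FPKM of Ccnd1 and Ccnd3 in liver, with 72.5% in ventral pancreas and with 55.2% in dorsal pancreas, against 23.5% in medial foregut and 32.8% in foregut. This share is formed within a library and does not depend on the scaling between libraries. The Ccnd3 locus overlaps Bysl and Med20, and a pseudogene copy of Ccnd3 is annotated.

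Ccne1 (cyclin E1), which drives the start of DNA replication with Cdk2, stood out in liver. It had 111 FPKM in liver, against 36.8 in ventral pancreas and 42.7 in dorsal pancreas, a mean difference of 1.47 on the log2(FPKM + 1) scale, and it had 53.9 FPKM in medial foregut and 59.0 in foregut. Both pancreas libraries lay below both E8.5 libraries and liver lay above all of them. The locus lies at mm9 chr7:38883044-38892740. Its mean difference between liver and the E8.5 libraries was 0.97, and it was not counted there since the step to foregut was 0.91. Ccne2, the second cyclin E, was low throughout at 5.34, 3.80, 3.42, 4.38 and 5.24 FPKM in liver, ventral pancreas, dorsal pancreas, medial foregut and foregut, with liver and foregut at like levels. The ratio of Ccne1 to Ccna2 within a library was 1.22 in liver, 0.514 in ventral pancreas, 0.601 in dorsal pancreas, 0.653 in medial foregut and 0.675 in foregut.

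The S phase and mitotic cyclins varied little. Ccna2 (cyclin A2), active through replication and into mitosis, had 91.4, 71.6, 71.0, 82.5 and 87.5 FPKM in liver, ventral pancreas, dorsal pancreas, medial foregut and foregut. Ccnb1 and Ccnb2 (cyclins B1 and B2), the partners of Cdk1 at mitosis, had 26.4, 29.4, 30.7, 36.5 and 39.9 FPKM and 50.2, 54.3, 45.5, 57.8 and 58.8 FPKM in the same order. Both were higher in the E8.5 libraries than in all 3 E10.5 libraries, by less than the size that was counted, and each has an annotated pseudogene copy that could share its reads. Ccna1, a cyclin known mainly from the germ line, was near the floor at 0.822, 1.34, 0.603, 0.355 and 0.480 FPKM.

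**Figure D2:**
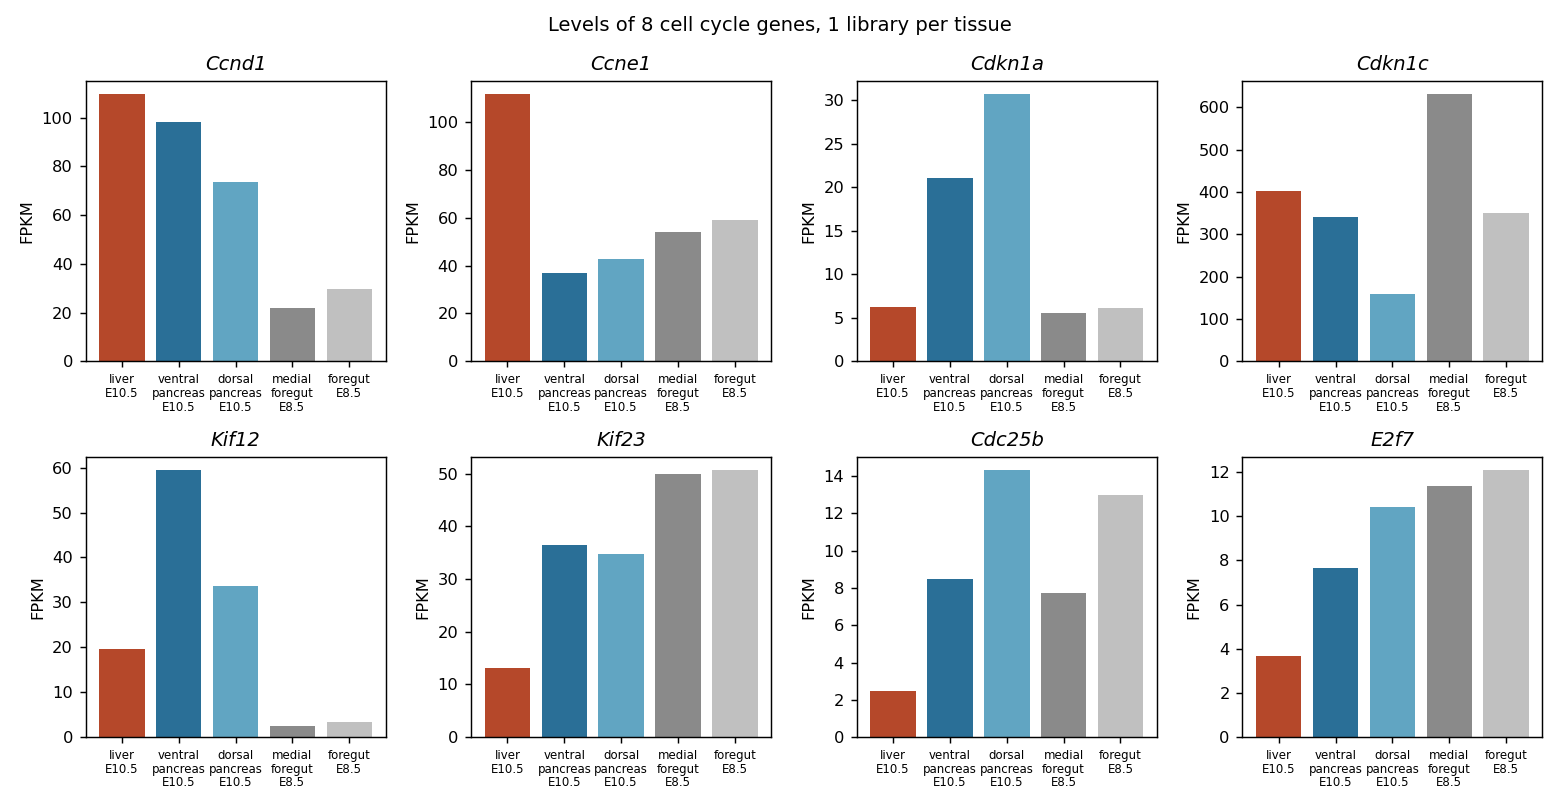
FPKM of 8 cell cycle genes in the 3 E10.5 tissues (liver red, pancreas blue) and the 2 E8.5 tissues (grey), each bar 1 library, so without error bars. Ccnd1 stands at 73.6 FPKM or more in the E10.5 libraries and at 29.6 or less in the E8.5 libraries, Ccne1 at 111 FPKM in liver, and Cdkn1a at 21.1 and 30.7 FPKM in the pancreas libraries against 6.26 or less elsewhere.

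The kinases that the cyclins switch on did not follow them. Cdk4, the partner of cyclin D, was the highest of the 123 genes in every library, with 745 FPKM in liver, 725 in ventral pancreas, 864 in dorsal pancreas, 683 in medial foregut and 756 in foregut. The ratio of Ccnd1 to Cdk4 was 0.147 in liver, with 0.135 in ventral pancreas and with 0.0851 in dorsal pancreas, against 0.0322 in medial foregut and 0.0391 in foregut, and it moved with Ccnd1 while Cdk4 stayed within the size that was not counted. Cdk6, the other cyclin D kinase, was far lower, with 7.96, 3.33, 4.74, 4.95 and 4.84 FPKM in liver, ventral pancreas, dorsal pancreas, medial foregut and foregut. Cdk1, the mitotic kinase, had 90.4, 66.1, 72.3, 95.0 and 92.2 FPKM, and Cdk2, which acts with cyclins E and A, had 52.1, 46.3, 47.1, 49.5 and 43.7 FPKM in the same order. Cdk7, which activates the other Cdks and also acts in transcription, had 62.5, 56.6, 50.6, 59.0 and 58.6 FPKM.

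Among the phosphatases, only Cdc25b and Cdc14a were counted, both lower in liver. The Cdc25 phosphatases remove the brake phosphate from Cdks. Cdc25b had 2.45 FPKM in liver, against 8.46 in ventral pancreas and 14.3 in dorsal pancreas, with 7.74 in medial foregut and 13.01 in foregut. Liver was below all of the other libraries, with a mean difference of -1.80 from the pancreas libraries and of -1.68 from the E8.5 libraries on the log2(FPKM + 1) scale. With a pseudocount of 5 FPKM these came to -1.11 and -1.02 and neither was counted, since the steps to ventral pancreas and medial foregut were smaller than 1. Cdc25a, which acts at the start of replication, had 28.2, 26.1, 27.7, 26.6 and 32.1 FPKM in liver, ventral pancreas, dorsal pancreas, medial foregut and foregut, with no library apart. Cdc25c, known from entry into mitosis, had 10.1, 14.4, 16.5, 16.8 and 17.2 FPKM, lowest in liver by less than the size that was counted. Cdc14a, a phosphatase whose yeast relative opposes Cdk1, had 2.10 FPKM in liver, against 5.57 in ventral pancreas and 6.19 in dorsal pancreas, with 6.24 in medial foregut and 6.19 in foregut. Its mean difference was -1.15 against the pancreas libraries, which came to -0.97 after median-ratio rescaling and to -0.61 with a pseudocount of 5 FPKM, no longer counted in either case. Its difference from the E8.5 libraries came to -0.66 with that pseudocount and was not counted. Its relative Cdc14b went the other way, with 19.1, 14.3, 17.8, 14.5 and 10.04 FPKM, and was not counted.

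The ubiquitin ligase that ends mitosis, the anaphase-promoting complex, was level across the tissues. Cdc20, its activator, had 37.3, 35.2, 40.9, 43.0 and 49.3 FPKM in liver, ventral pancreas, dorsal pancreas, medial foregut and foregut. The subunits Cdc23, Cdc26 and Cdc27 lay between 21.9 and 41.6 FPKM over all libraries, and none of these 4 genes was counted.

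The Cdk inhibitors separated the tissues along other lines. Cdkn1a (p21, mm9 chr17:29230617-29237665), the inhibitor best known as a target of p53, was high in the pancreas libraries. It had 21.1 FPKM in ventral pancreas and 30.7 in dorsal pancreas, against 5.51 in medial foregut and 6.16 in foregut, and liver was close to the E8.5 libraries at 6.26 FPKM. The difference from the E8.5 libraries was 1.69 in ventral pancreas and reached 2.21 in dorsal pancreas, and liver differed from the pancreas libraries by -1.86, all as means on the log2(FPKM + 1) scale. Mdm2 and Ccng1, further p53 targets, are in the checkpoint list below and were not counted.

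Cdkn1c (p57, mm9 chr7:150644175-150647215), an imprinted inhibitor linked to exit from the cycle, was the most abundant inhibitor. It had 402 FPKM in liver, 341 in ventral pancreas, 158 in dorsal pancreas, 631 in medial foregut and 350 in foregut, so that dorsal pancreas was the lowest and medial foregut the highest. Dorsal pancreas was lower than the E8.5 libraries by a mean difference of -1.57. Ventral pancreas was higher than dorsal pancreas by 1.10, which came to 0.99, under the size that counts, when each library was rescaled to the same sum. Medial foregut, the library with the highest Cdkn1c, also had the highest sums of heart muscle and mesenchymal genes. Acta2 gave most of that mesenchymal sum, and the part of these genes was not tested. The ratio of Cdkn1a to Cdkn1c was 0.0156 in liver, 0.0619 in ventral pancreas, 0.194 in dorsal pancreas, 0.00874 in medial foregut and 0.0176 in foregut. Cdkn1b (p27) had 12.2, 19.7, 18.4, 17.5 and 13.9 FPKM in liver, ventral pancreas, dorsal pancreas, medial foregut and foregut, and Cdkn2c (p18) had 1.10, 1.23, 0.476, 0.881 and 0.811 FPKM. Neither was counted.

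The E2F factors showed single differences. E2f7 and E2f8 are the atypical E2Fs, which repress E2F targets. E2f7 (mm9 chr10:110182484-110224455) had 3.68 FPKM in liver, 7.65 in ventral pancreas, 10.4 in dorsal pancreas, 11.4 in medial foregut and 12.1 in foregut, and liver was lower than the E8.5 libraries by a mean difference of -1.44, which came to -0.95 with a pseudocount of 5 FPKM and was then not counted. E2f8 did not share this, with 19.0, 9.71, 11.9, 15.6 and 14.2 FPKM in the same order and liver the highest. E2f2, an activating E2F, had 4.38 FPKM in medial foregut, against 11.5 in foregut, a difference of -1.21, which came to -0.81 with a pseudocount of 5 FPKM and was then not counted. Its other levels were 17.2 FPKM in liver, with 8.26 in ventral pancreas and with 11.2 in dorsal pancreas, which surround that of foregut. The activator E2f3 had 19.7, 21.6, 26.2, 25.5 and 26.9 FPKM in liver, ventral pancreas, dorsal pancreas, medial foregut and foregut. The repressors E2f5 and E2f6 stayed between 8.94 and 10.9 FPKM and between 30.9 and 38.3 FPKM. E2f1 had 1.83, 3.44, 3.32, 1.91 and 2.59 FPKM at this locus, which has no strand, and its name also occurs in a joined locus not analysed here.

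Aurora and Bub genes were highest in foregut and were counted in no comparison. Bub1, a kinase of the spindle checkpoint, had 51.5, 54.2, 58.3, 69.7 and 81.9 FPKM in liver, ventral pancreas, dorsal pancreas, medial foregut and foregut. Aurka, the kinase of the spindle poles, had 16.0, 17.3, 14.4, 24.8 and 25.0 FPKM, so that both E8.5 libraries were above all 3 E10.5 libraries, and its locus overlaps Cstf1. Aurkb, the kinase of the chromosomal passenger complex, had 40.7, 40.7, 48.4, 46.5 and 54.8 FPKM. Bub1b and Bub3, checkpoint proteins, had 46.1, 49.8, 52.3, 47.7 and 60.2 FPKM and 53.1, 52.5, 70.1, 68.4 and 78.6 FPKM in the same order. All 5 were highest in foregut, or 4 of 5 after median-ratio rescaling. As deposited, all 5 were lower in liver than in both E8.5 libraries, where 50.8% of all named loci were. The median of the 5 there was -0.37 relative to all named loci. Liver was lowest for 2 of the 5 genes as deposited, for 5 after rescaling to the same sum and for 0 after median-ratio rescaling. The shares of all named loci were 39.9%, 44.0% and 30.8%.

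The 15 centromere and kinetochore genes had no counted member. Cenpa, the histone that marks the centromere, had 104, 95.6, 104, 119 and 119 FPKM in liver, ventral pancreas, dorsal pancreas, medial foregut and foregut and was the highest of them in every library. Cenpf and Cenpe, large proteins of the outer kinetochore, were lowest in liver. Cenpf had 9.85 FPKM in liver, against 19.6 in ventral pancreas and 20.0 in dorsal pancreas, with 19.8 in medial foregut and 26.9 in foregut. Cenpe had 13.8, 28.1, 23.3, 19.8 and 24.7 FPKM in the same order. Cenpv, named for its role at the centromere, varied most among the 15, with 18.5, 12.6, 15.7, 3.90 and 8.78 FPKM, higher in the E10.5 libraries than in both E8.5 libraries. Cenph, a constitutive kinetochore protein, had 28.6, 36.9, 36.5, 34.4 and 36.4 FPKM. The Cenpw locus covered only 5.89% of the annotated span of the gene.

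Mitotic kinesins were lowest in liver. The 10 genes summed to 142 FPKM in liver, against 203 in ventral pancreas and 210 in dorsal pancreas, with 212 in medial foregut and 246 in foregut. As deposited, all 10 were lower in liver than in both pancreas libraries, against 52.9% of all named loci. The median difference was -0.53, or -0.35 relative to all named loci. Liver was the lowest of the 5 libraries for 9 of the 10 genes as deposited, for 8 after rescaling to the same sum and for 7 after median-ratio rescaling, against 39.9%, 44.0% and 30.8% of all named loci. The ratio of their summed FPKM to that of the licensing genes, formed within a library, was 0.240 in liver, 0.375 in ventral pancreas, 0.355 in dorsal pancreas, 0.334 in medial foregut and 0.316 in foregut. Without Kif23 the ratio was 0.218, 0.308, 0.296, 0.255 and 0.251 in the same order, with liver still the lowest.

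Kif23 (mm9 chr9:61765081-61794799), a motor of the central spindle needed to split the daughter cells, was the only mitotic kinesin counted. It had 13.02 FPKM in liver, against 36.5 in ventral pancreas and 34.7 in dorsal pancreas, with 49.9 in medial foregut and 50.7 in foregut. The levels fell into an order of E8.5 above pancreas above liver, and liver differed by -1.38 from the pancreas libraries and by -1.87 from the E8.5 libraries on the log2(FPKM + 1) scale. Kif23 made up 9.16% of the summed mitotic kinesins in liver, 18.0% in ventral pancreas, 16.5% in dorsal pancreas, 23.6% in medial foregut and 20.6% in foregut. Kif11, the motor that pushes the spindle poles apart, had 37.6, 41.2, 39.1, 37.8 and 45.2 FPKM, and Kif15, which can stand in for it, had 23.7, 35.4, 36.7, 31.2 and 42.0 FPKM in the same order. Kif20b, which acts in cytokinesis, had 14.0, 21.8, 21.2, 20.9 and 21.6 FPKM, and Kif18b, a regulator of spindle microtubules, had 7.73, 9.97, 13.8, 13.2 and 16.2 FPKM. The promoters of Kif11, Kif15, Kif18b and Kif20b also carry the CHR word, and these genes were not counted. The word also occurs in the promoters of Cdc14a, Kif1a and E2f2, which were counted. A link between the word and the levels was not tested.

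**Figure D3:**
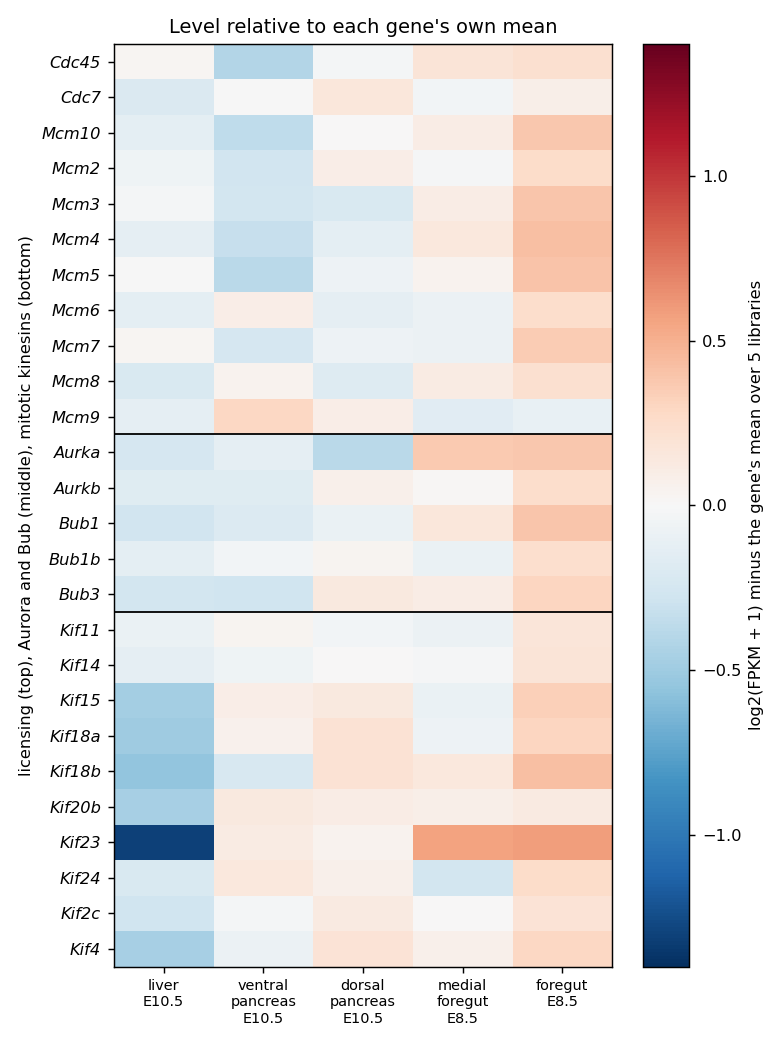
Level of each licensing gene, Aurora or Bub gene and mitotic kinesin in the 5 libraries, as log2(FPKM + 1) minus the mean of that gene over the libraries. The foregut column is red for all but Mcm9, and the liver column is blue in all 10 mitotic kinesins and deepest in Kif23.

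The other kinesins, which mainly carry cargo in interphase cells, held the widest differences. Kif12, a kinesin known from kidney epithelium in mouse, had 19.7 FPKM in liver, with 59.5 in ventral pancreas and with 33.6 in dorsal pancreas, against 2.47 in medial foregut and 3.46 in foregut. All 3 E10.5 libraries were above both E8.5 libraries, by 2.39 in liver, with 3.94 in ventral pancreas and with 3.14 in dorsal pancreas. The 10 epithelial genes of the endoderm, such as Epcam and Cdh1, summed to 499 FPKM in liver, 1347 in ventral pancreas, 689 in dorsal pancreas, 1135 in medial foregut and 810 in foregut. Among them Epcam had 28.4, 343, 163, 46.5 and 45.6 FPKM in the same order. Epcam and Cdh1 were counted as higher in both pancreas libraries than at E8.5, but the list was mixed. Against E8.5, 5 of the 10 were counted as higher and 1 as lower in ventral pancreas. In dorsal pancreas 2 were higher and 4 lower (Foxa1, Gata4, Gata6 and Krt18), and in liver 1 was higher and 3 lower. The part of epithelial content in the Kif12 difference was not tested. The Kif12 locus (mm9 chr4:62816454-62833433) spans 261% of the annotated gene.

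Kif1a and Kif5c, motors of axonal transport, were lowest in liver. Kif1a had 2.31 FPKM in liver, against 13.6 in ventral pancreas and 12.01 in dorsal pancreas, with 6.38 in medial foregut and 10.8 in foregut. Its mean difference was -2.06 between liver and the pancreas libraries and -1.49 between liver and the E8.5 libraries. With a pseudocount of 5 FPKM the difference from the E8.5 libraries came to -0.87 and was not counted. Kif5c had 0.219 FPKM in liver, 3.78 in ventral pancreas, 7.15 in dorsal pancreas, 5.93 in medial foregut and 7.01 in foregut, and differed by -2.61 between liver and the E8.5 libraries. The 10 neuronal genes found of 14 listed summed to 4.53, 18.3, 59.8, 34.5 and 78.3 FPKM in the same order, with none at 0. The 11 endocrine genes found of 14 listed summed to 2.08, 283, 1655, 39.2 and 52.5 FPKM. At least 1 of them was at 0 in liver, medial foregut and foregut. Gcg alone gave 208 FPKM of the endocrine sum in ventral pancreas and 1349 in dorsal pancreas. Pax6 and Isl1 had 20.0 and 17.8 FPKM in medial foregut and 42.6 and 5.88 in foregut. Liver was the lowest library for both the neuronal and the endocrine sum. The part of these genes in the Kif1a and Kif5c differences was not tested.

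Kif3a and Kif3c, motor subunits of the kinesin-2 family that moves cargo along cilia and axons, were lower in liver than in the pancreas libraries. Kif3a had 7.52 FPKM in liver, against 19.4 in ventral pancreas and 18.3 in dorsal pancreas, with 13.4 in medial foregut and 14.6 in foregut. Kif3c had 2.08, 6.36, 6.10, 4.58 and 4.32 FPKM in the same order, and its locus overlaps 1110002L01Rik. The mean differences were -1.22 for Kif3a and -1.23 for Kif3c. With a pseudocount of 5 FPKM they came to -0.93 and -0.67 and neither was counted, and Kif3a was also not counted after median-ratio rescaling, at -1.01 with a step to dorsal pancreas smaller than 1. Kif3b, another kinesin-2 subunit, had 7.10, 9.56, 9.81, 8.21 and 8.51 FPKM and was not counted. Kif5b, the broadly expressed transport kinesin, had 33.4, 27.1, 32.5, 39.3 and 38.7 FPKM, and Kif1c had 32.0, 30.4, 23.4, 24.2 and 25.4 FPKM, neither of them counted. Over the 20 other kinesins, 15 were lower in liver than in both pancreas libraries (75%), where 52.9% of all named loci were. The median difference of the 20 was -0.68 against -0.18 for all named loci.

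Among the 18 Cdk and Cdc genes outside the cycle and the 11 genes named after a member or partner, 3 were counted in any of the 6 comparisons. Of all named loci, 21.0% were. Cdk18 had 14.0 FPKM in liver, 8.25 in ventral pancreas, 5.06 in dorsal pancreas, 2.76 in medial foregut and 4.73 in foregut, and was higher in liver than in the E8.5 libraries by 1.69, which came to 1.13 with a pseudocount of 5 FPKM and was not counted, since the step to foregut was smaller than 1. Cdk19, a kinase of the Mediator complex of transcription, had 1.88 FPKM in liver, against 5.61 in ventral pancreas and 6.56 in dorsal pancreas, a difference of -1.30, with 3.98 in medial foregut and 4.28 in foregut. With a pseudocount of 5 FPKM the difference came to -0.69 and was not counted. Its close relative Cdk8 had 37.4, 30.9, 30.3, 29.8 and 30.8 FPKM in liver, ventral pancreas, dorsal pancreas, medial foregut and foregut, with liver the highest, and was not counted. Cdk2ap2, a Cdk2-associated protein, had 58.8 FPKM in liver, against 22.1 in ventral pancreas and 17.7 in dorsal pancreas, with 17.5 in medial foregut and 14.7 in foregut. Liver was above all other libraries, by 1.52 against the pancreas libraries and by 1.81 against the E8.5 libraries. Cdk2ap1 had 123, 117, 150, 125 and 123 FPKM and Cdc37, a chaperone partner of kinases, had 151, 133, 164, 175 and 168 FPKM, and these were the most abundant of the remaining genes.

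Set against the whole table, the E10.5 tissues differed from the E8.5 tissues in few of these genes. Liver was higher than both E8.5 libraries for 4 of the 123 genes (3.25%: Ccnd1, Cdk2ap2, Cdk18 and Kif12), where 5.24% of all named loci were, and lower for 6 (4.88%: Cdc14a, Cdc25b, E2f7, Kif23, Kif1a and Kif5c), where 6.08% of all named loci were. Ventral pancreas was higher for 3 genes (2.44%: Ccnd1, Cdkn1a and Kif12), where 6.38% of all named loci were, and lower for 0, where 3.31% of all named loci were. Dorsal pancreas was higher for the genes Ccnd1, Cdkn1a and Kif12 as well (2.44%), where 4.36% of all named loci were, and lower for Cdkn1c alone (0.813%), where 2.80% of all named loci were. The shares of the cell cycle genes were thus below or near those of the whole table. These 3 comparisons share the E8.5 libraries, so a high or low E8.5 level moves all of them together.

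**Figure D4:**
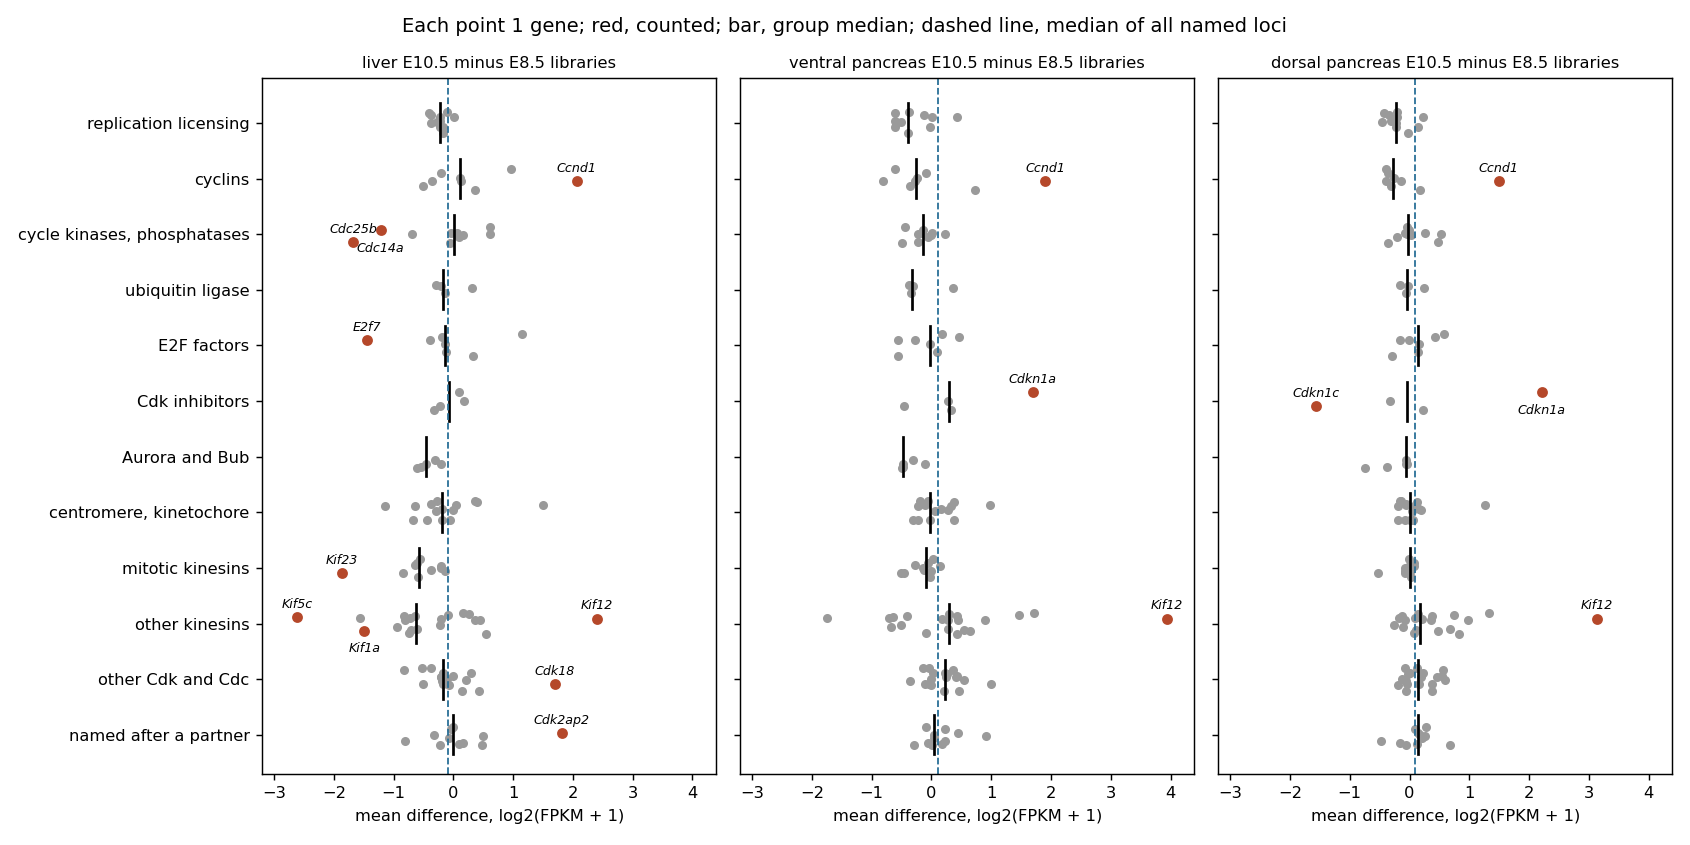
Mean difference in log2(FPKM + 1) between each E10.5 library and the E8.5 libraries, each point 1 gene, by group. Named red points were counted, black bars are group medians and the dashed line is the median of all named loci; grey points beyond 1 in size did not reach 5 FPKM or did not pass against each E8.5 library. Ccnd1 and Kif12 lie right of 1 in all 3 panels.

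Between the E10.5 tissues, liver was higher than both pancreas libraries for 2 genes (1.63%: Ccne1 and Cdk2ap2), where 3.11% of all named loci were. It was lower for 8 genes (6.5%: Cdc14a, Cdc25b, Cdkn1a, Kif23, Cdk19, Kif1a, Kif3a and Kif3c), where 5.36% of all named loci were. Ventral pancreas was higher than dorsal pancreas for Cdkn1c alone (0.813%), where 3.28% of all named loci were, and lower for 0 genes, where 2.47% of all named loci were. Medial foregut was higher than foregut for 0 genes, where 0.275% of all named loci were, and lower for E2f2 alone (0.813%), where 0.469% of all named loci were. The pancreatic buds and the E8.5 tissues thus each differed in 1 of the 123 genes.

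**Figure D5:**
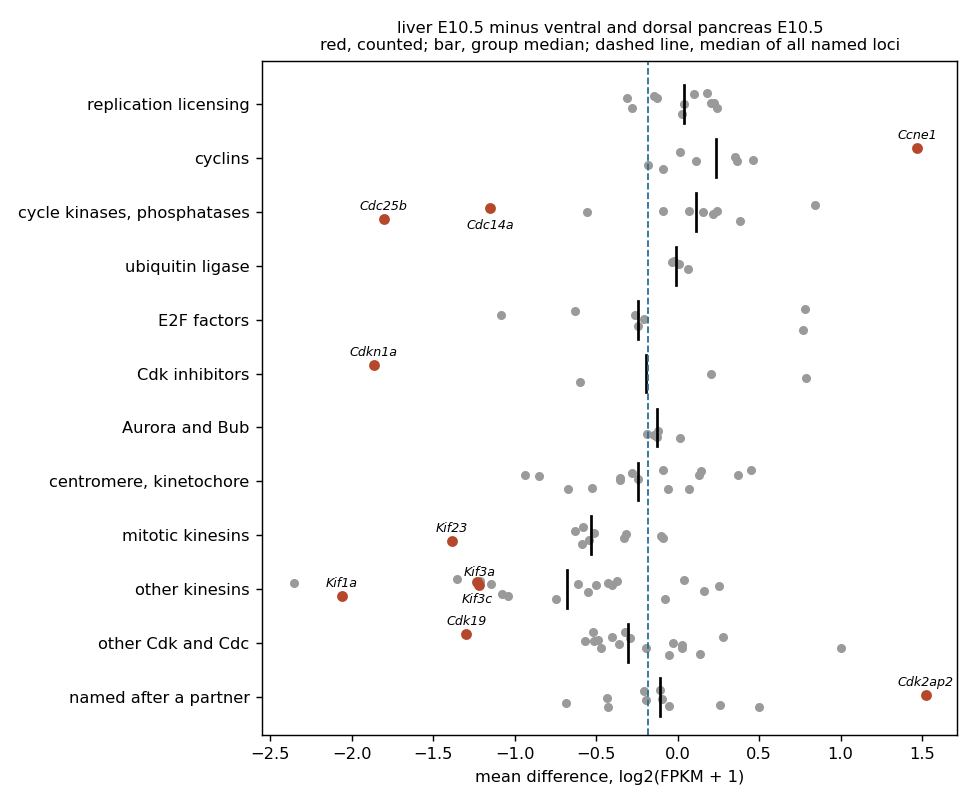
Mean difference in log2(FPKM + 1) between liver and the pancreas libraries at E10.5, each point 1 gene, by group, with counted genes in red and named. Black bars are group medians, and those of the mitotic kinesins (-0.53) and other kinesins (-0.68) lie left of the dashed line at -0.18, the median of all named loci.

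Small differences placed some groups of the division machinery highest in foregut and others not. Of all 123 genes, 39 were highest in foregut (31.7%), or 44 (35.8%) after rescaling to the same sum and 45 (36.6%) after median-ratio rescaling, against 11.8%, 15.5% and 13.3% of all named loci. The 70 genes of licensing, cyclins, cycle kinases and phosphatases, the ubiquitin ligase, E2Fs, centromere, Aurora and Bub and mitotic kinesins were highest in foregut in 37 cases (52.9%), and in 39 (55.7%) after either rescaling. By group these were 9 of 11 licensing genes, 5 of 5 Aurora and Bub genes, 9 of 10 mitotic kinesins, 3 of 4 ubiquitin ligase genes and 5 of 15 centromere genes. Among the kinases and phosphatases 2 of 10 were highest in foregut and 4 in liver. These counts became 4 and 1 after rescaling to the same sum, but 2 and 6 after median-ratio rescaling. Among the cyclins 2 of 8 were highest in foregut and 4 in liver. These became 4 and 2 after rescaling to the same sum and stayed at 2 and 4 after median-ratio rescaling. Among the E2Fs 2 of 7 were highest in foregut, or 1 after rescaling to the same sum and 3 after median-ratio rescaling. In medial foregut, 59 of the 70 were lower than in foregut (84.3%), against 50.4% of all named loci, with a median difference of -0.14 relative to all named loci. Of the kinases and phosphatases among them, 4 of 10 were lower in medial foregut, with a median of 0.01 on the same relative scale. Over all 123 genes, 89 were lower in medial foregut (72.4%). These genes are not independent of each other, and 1 library of each tissue gives no measure of chance.

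For genes of the same processes under other names, the share of all named loci to compare with is the 21.0% counted in any of the 6 comparisons. Of 31 further DNA replication genes listed, such as Orc1, Cdt1 and Gins1, 27 were found and 0 were counted in any of the 6 comparisons. Of 40 further mitosis genes, 34 were found, and 2 were counted. Mybl2, a transcription factor of the cycle, had 9.03 FPKM in ventral pancreas, against 20.9 in medial foregut and 21.3 in foregut, and Spc25, a kinetochore subunit, had 83.0 FPKM in ventral pancreas, against 38.1 in dorsal pancreas. Of these 34 genes, 28 were lower in medial foregut than in foregut (82.4%), against 50.4% of all named loci. Of 18 further genes of the Rb, p53 and checkpoint pathways, 17 were found and 2 were counted. Btg2, an antiproliferative gene induced by p53, had 3.72 FPKM in liver, against 9.04 in ventral pancreas and 12.8 in dorsal pancreas, lower in liver as Cdkn1a was. Mycn, a Myc family factor, had 19.9 FPKM in ventral pancreas, against 42.2 in dorsal pancreas.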

How the data were processed

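Poly(A) RNA of 5 mouse tissues, 1 library each, was sequenced as paired ends from random-hexamer cDNA with no strand marking described, per the labels' protocols. The authors deposited 1 table of FPKM values per locus, with mm9 coordinates. TopHat 1.33, Cufflinks 1.3.0 and the build mm9 are named in the submitters' processing notes without a role or order. Read counts could not be recovered from low values, so depth is unknown and no count test was used.

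Each column was assigned by the name that the sample's label repeats. Loci without a name (1678) were left out. Differences were taken of log2(FPKM + 1) with the counting rule given above, checked on simulated data, and without p-values. Genes always named were those of the small core groups, and otherwise counted genes and the most abundant of each group. The rule for members used names only, but these families and all lists were chosen with earlier results of these data known. Alternatives were the pseudocount, 2 rescalings, no minimum level, a difference of at least 2, and leaving out partial loci. All 123 names matched 1 gene of the GRCm38 annotation, used only for names, strand and span, and 24 loci overlap another named locus. The names of 14 further genes occur only or also in joined loci and were not analysed here. Python 3.11.15, pandas 2.3.3 and matplotlib 3.10.9 were used.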

Additional observations from a re-analysis of the deposited data

Results flagged for a closer look

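Cdc25b, Kif1a and Kif5c lay below both E8.5 libraries in liver and above both in at least 1 pancreas library, and were picked for the width of the gap. Other genes, among them Cdk19, Kif3a and Kif3c, lay the same way with smaller gaps. The share of all named loci that did so was not counted. With 1 library per tissue the difference was not tested, and the comparisons share the E8.5 libraries. Cdc25b differed from the E8.5 libraries by -1.68 in liver and by 0.47 in dorsal pancreas on the log2(FPKM + 1) scale, a gap of -2.15, while ventral pancreas differed by -0.23. Kif1a differed by -1.49 in liver and by 0.65 in ventral pancreas, a gap of -2.14. In dorsal pancreas Kif1a differed by 0.48, a gap of -1.98 from liver. Kif5c differed by -2.61 in liver and by 0.13 in dorsal pancreas, a gap of -2.74, while ventral pancreas differed by -0.64, and the median of all named loci in dorsal pancreas was 0.09.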

How the results depend on the processing

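Counts of genes were recomputed under 6 alternatives and group medians under 3 of them, and no counted value changed sign. With a difference of at least 2, liver against E8.5 had 1 gene higher and 1 lower, ventral pancreas against E8.5 had 1 higher, dorsal pancreas against E8.5 had 0 lower, liver against pancreas had 0 higher and 0 lower, ventral against dorsal pancreas had 0 higher, and medial foregut against foregut had 0 lower. With a pseudocount of 5 FPKM, liver had 2 genes lower against E8.5 and 3 lower against pancreas, and medial foregut had 0 lower against foregut. This larger pseudocount ended the calls of Cdc14a, Cdc25b, E2f7, Kif1a and Cdk18 between liver and E8.5, of Cdc14a, Cdc25b, Cdk19, Kif3a and Kif3c between liver and pancreas, and of E2f2. Median-ratio rescaling ended those of Cdc14a and Kif3a between liver and pancreas. After rescaling each library to a sum of 1000000, ventral pancreas had 5 genes higher and 1 lower against E8.5, and 0 higher and 2 lower against dorsal pancreas, and medial foregut had 2 lower. With no minimum level, ventral pancreas had 5 higher and 1 lower against E8.5 and 1 lower against dorsal pancreas. The cause was not tested beyond what each rule itself changes. The other 53 recomputed counts stayed within 1.5 times. Of the recomputed values of counted genes, 136 kept their call and 38 lost it, 24 of these with a difference of at least 2. The rescalings moved the median of all named loci by at most 0.18 on the log2 scale. Low genes such as Cdc14a, Cdk19 and Kif3c rest on levels of 1.88 to 6.56 FPKM, and their depth is unknown. No paired analysis was possible because each tissue has 1 library, and for the same reason no library could be left out.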

Other observations

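Kif17, a motor known from cilia and dendrites in mouse, had 0.420 FPKM in liver, with 3.16 in ventral pancreas and with 2.17 in dorsal pancreas, against 0.311 in medial foregut and 0.224 in foregut, and did not reach the level of 5 FPKM that counting needs. Kif9 and Kif27 were lowest in liver, with 0.338, 2.97, 1.41, 0.346 and 0.526 FPKM for Kif9 and 0.323, 2.18, 1.326, 0.999 and 1.35 FPKM for Kif27 in liver, ventral pancreas, dorsal pancreas, medial foregut and foregut. Both were highest in ventral pancreas. Kif7, a regulator of hedgehog signalling at the tip of the cilium, had 2.05, 3.81, 4.42, 3.998 and 4.27 FPKM, with liver the lowest, and its locus overlaps 5730590G19Rik. Kif26b had 0.740 FPKM in liver and 0.545 in ventral pancreas, and 3.56 in dorsal pancreas, 4.89 in medial foregut and 3.54 in foregut. Ventral and dorsal pancreas thus stood apart for Kif26b at levels under the 5 FPKM that counting needs. Kif13b had 13.4, 12.2, 16.4, 6.43 and 11.99 FPKM, with medial foregut the lowest, and its locus reaches over 21.7% of the span annotated for the gene.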
